A study of Mus musculus with 24 samples.

Results

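The genes of MHC class I antigen presentation were followed across MIN6 lines made to inhibit or overexpress miR-146a-5p, with and without proinflammatory cytokines. Of the 17696 genes in the deposited count table, 10 were selected by their symbols, and all 10 had reads assigned to them. They are the heavy chains H2-K1, H2-D1 and H2-T23, the light chain B2m, the peptide transporter subunits Tap1 and Tap2, the loading factors Tapbp and Tapbpl, the trimming peptidase Erap1 and the transactivator Nlrc5. MIN6 is a mouse insulinoma line used as a model of the pancreatic β cell. Stable lines had been made by lentiviral transduction with a scrambled sequence (Scr), an antisense sequence that inhibits miR-146a-5p (ZIP) or the microRNA itself (OE), and each line was sequenced untreated and after 24 h with IL-1β at 5 ng/ml, IFNγ at 100 ng/ml and TNFα at 10 ng/ml (Scr+Cy, ZIP+Cy and OE+Cy). There were 24 mRNA libraries, 4 in each of the 6 groups.

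All lines had been selected with puromycin and grown from single clones, so the effect of a vector and the character of a clone cannot be told apart. The OE vector had another backbone than the Scr and ZIP vectors, and carried another fluorescent marker. miR-146a-5p itself was not analysed here, so the line labels were not checked against it. The paper's own qRT-PCR found it raised in untreated OE cells against Scr. It also reports that cytokines raised the microRNA in every line, by a larger fold in Scr than in ZIP or OE cells. The sources do not say whether the libraries of a group came from separate cultures, and p values therefore measure the spread between these libraries.

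Class I molecules display peptides from inside the cell to CD8 T cells, and in type 1 diabetes β cells with raised class I are a known feature of inflamed islets. Peptides are cut by the proteasome, carried into the endoplasmic reticulum by the Tap1-Tap2 transporter, trimmed by Erap1 and loaded onto a heavy chain bound to β2-microglobulin, the product of B2m, with the help of tapasin (Tapbp) and its relative TAPBPR (Tapbpl). Interferon γ raises these genes in part through Irf1, and through Nlrc5, a nuclear protein that acts on class I promoters. H2-K1 and H2-D1 encode classical class I heavy chains, whereas H2-T23 encodes Qa-1, a nonclassical heavy chain that presents leader peptides of other class I proteins.

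In the mm10 coordinates of the count table, 6 of the 10 genes lay on chromosome 17, namely Tapbp (33919478 to 33929290, plus strand), H2-K1 (33996012 to 34000347, minus), Tap1 (34187556 to 34197225, plus), Tap2 (34204479 to 34216321, plus), H2-D1 (35263094 to 35267497, plus) and H2-T23 (36029977 to 36032701, minus). The other 4 were B2m on chromosome 2 (122147687 to 122153082, plus), Tapbpl on chromosome 6 (125224212 to 125231860, minus), Nlrc5 on chromosome 8 (94472763 to 94527272, plus) and Erap1 on chromosome 13 (74639853 to 74693205, plus). H2-L lay over H2-D1 on the same strand, and 4 members overlapped a gene of the opposite strand, H2-T23 with A930015D03Rik, B2m with Patl2, Tapbp with Gm19412 and Tapbpl with E130112N10Rik. Whether the counting used strand is not given in the sources used here, so reads of these pairs may not be separated.

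RefSeq promoter windows of the GRCm38.p6 assembly, from 250 bases before to 50 bases after the start site, matched 7 of the 10 genes, with no window for Tap2, Tapbpl or Nlrc5. They were searched on both strands for GAANNGAAA, a form of the interferon response element, and TTCNNNGAA, a gamma-activated site. The search also took in GGANTNNCC, an NF-κB site, and CCAAT, a box bound by NF-Y. Among 32851 windows of this length, 7.5%, 8.3%, 13% and 37.4% held a match to these letters, in that order. The windows of H2-K1 and H2-D1 are shown because they shared a run of 47 identical bases and the same pair of matches. That of B2m is shown because B2m rose more with cytokines than these 2 heavy chain genes, though not more than H2-T23 in Scr cells. Capitals mark matches to GAANNGAAA and to the letters of the NF-κB site, read 5′ to 3′ along the gene's strand.
H2-K1, chr17:34000298-34000597, minus strand: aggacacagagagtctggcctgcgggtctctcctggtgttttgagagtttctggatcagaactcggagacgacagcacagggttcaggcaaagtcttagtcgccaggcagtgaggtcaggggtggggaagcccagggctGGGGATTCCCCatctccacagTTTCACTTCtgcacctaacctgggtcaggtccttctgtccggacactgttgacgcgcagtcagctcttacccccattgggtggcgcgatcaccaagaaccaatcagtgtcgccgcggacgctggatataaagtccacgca
H2-D1, chr17:35262844-35263143, plus strand: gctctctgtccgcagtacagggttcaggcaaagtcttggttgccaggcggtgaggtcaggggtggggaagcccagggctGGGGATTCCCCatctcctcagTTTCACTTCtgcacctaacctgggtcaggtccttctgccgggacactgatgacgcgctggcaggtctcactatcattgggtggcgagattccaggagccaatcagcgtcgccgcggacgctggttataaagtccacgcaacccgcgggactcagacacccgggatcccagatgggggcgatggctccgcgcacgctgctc
B2m, chr2:122147437-122147736, plus strand: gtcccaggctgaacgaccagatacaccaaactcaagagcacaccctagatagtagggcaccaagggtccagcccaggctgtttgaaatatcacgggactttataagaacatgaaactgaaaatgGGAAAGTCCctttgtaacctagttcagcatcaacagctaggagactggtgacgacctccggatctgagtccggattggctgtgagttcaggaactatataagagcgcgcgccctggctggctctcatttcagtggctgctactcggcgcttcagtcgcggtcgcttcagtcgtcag
The GAANNGAAA letters began 90 bases before the H2-K1 start and 150 bases before the H2-D1 start, as TTTCACTTC, which matches on the reverse strand. NF-κB letters began 111 bases before the start of H2-K1 and 171 bases before that of H2-D1, where matches on both strands overlapped, and 126 bases before that of B2m. With 1 offset of 60 bases, 176 of 240 aligned bases, or 73.3%, were identical between the H2-K1 and H2-D1 windows. Letters of the interferon response element were found in 2 of the 7 windows, those of the NF-κB site in 3, those of the gamma-activated site in 0 and the CCAAT box in 6, all but that of Erap1. The Tap1 window shared 275 bases with that of Psmb9, an immunoproteasome gene read in the opposite direction. These matches describe letters in a window and were not tested as sites.

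Each library held between 26657792 and 37168232 reads assigned to genes. All 10 β cell markers listed, insulin genes among them, reached 1 CPM (reads of a gene per 1e6 reads of the library) in every group, with summed levels of 25913 to 52613 CPM. The markers of macrophages and dendritic cells that were in the table summed to at most 2.45 CPM, those of lymphocytes to at most 0.767 and those of endothelial cells to at most 5.07 in any library. Fibroblast markers summed to between 0.537 and 58.7 CPM and were highest in replicate 1 of Scr (18.9), ZIP (54.0) and Scr+Cy (58.7); their part in the results was not tested. Levels below are CPM after TMM scaling of library size, given in the order of the replicate numbers.

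Scr+Cy cells were first compared with Scr cells, which asks how cytokines changed class I presentation genes. All 10 genes rose, from 6.25-fold for Tapbpl to 118-fold for Nlrc5, and every Scr+Cy library lay above every Scr library for all 10. Of all genes tested, 7.88% were called higher and 11.5% had every Scr+Cy library above every Scr library. The median log2 fold change of the 10 genes was 4.09, against 0.0023 for all genes. Calls required both a 1.5-fold difference or more and a p below 0.05 before adjustment, and the adjusted p beside each value takes in every gene tested in that comparison. In bulk RNA, more transcripts per cell and more cells that carry them cannot be told apart.

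**Figure D1:**
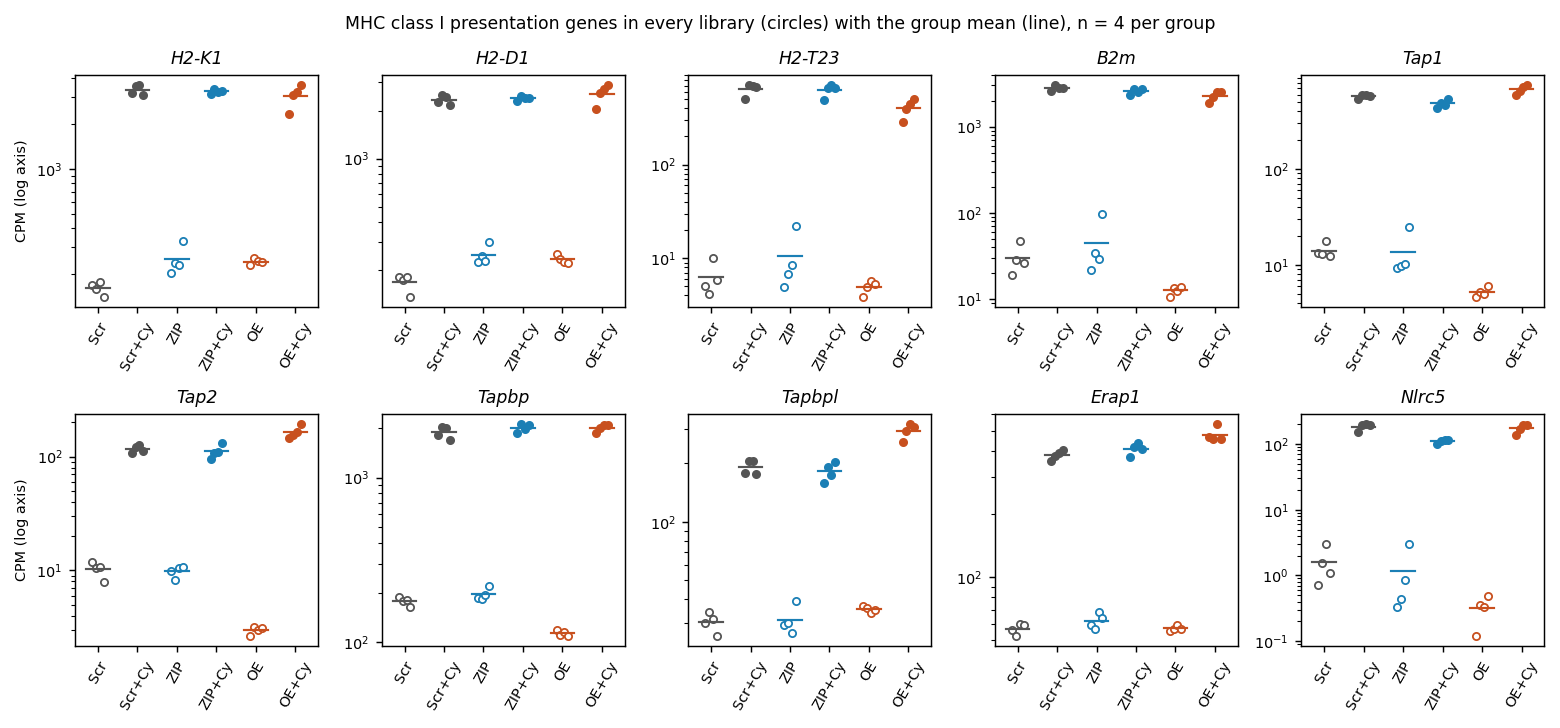
CPM of each class I presentation gene on a log axis, in 6 groups of 4 libraries. Circles are libraries, open without and filled with cytokines, and lines are group means. All 12 cytokine libraries sit above all 12 untreated libraries for each of the 10 genes, and the open OE circles of Tap1, Tap2 and B2m sit below the open Scr circles.

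The classical heavy chain H2-K1 was measured at 168, 158, 176 and 141 CPM in Scr and at 3188, 3581, 3607 and 3109 CPM in Scr+Cy. Its groups were far apart, with a log2 fold change of 4.39 (SE 0.136, adjusted p = 2.16e-17). H2-D1 stood at 182, 174, 181 and 137 CPM before and 2276, 2491, 2436 and 2158 CPM after cytokines, a log2 fold change of 3.80 (SE 0.111, adjusted p = 6.9e-18). The nonclassical H2-T23 started low, at 5.07, 4.11, 10.0 and 5.82 CPM, and reached 505, 707, 692 and 675 CPM. Replicate 1 was the lowest Scr+Cy library for H2-T23, yet it was far above the highest Scr library, and the log2 fold change was 6.70 (SE 0.359, adjusted p = 3.82e-13).

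B2m, the light chain shared by the class I heavy chains, rose from 18.9, 28.3, 47.3 and 26.4 CPM in Scr to 2617, 3027, 2772 and 2801 CPM in Scr+Cy. Its log2 fold change of 6.54 (SE 0.369, adjusted p = 9.9e-13) had a 95% interval of 5.81 to 7.26, above those of H2-K1 (4.12 to 4.66) and H2-D1 (3.58 to 4.02). Relative to their level, untreated libraries varied more than treated ones for this gene, and replicate 3 was the highest in Scr.

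Both subunits of the peptide transporter rose, Tap1 more than Tap2. Tap1 moved from 13.3, 12.9, 17.7 and 12.2 CPM to 544, 589, 596 and 582 CPM, a log2 fold change of 5.37 (SE 0.227, adjusted p = 4.17e-15). Tap2 moved from 11.9, 10.6, 10.8 and 7.84 CPM to 107, 120.5, 126 and 111 CPM, a log2 fold change of 3.50 (SE 0.117, adjusted p = 8.49e-17). The 95% intervals of these changes, 4.92 to 5.81 and 3.27 to 3.73, did not overlap.

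Tapbp, which holds an empty heavy chain next to the transporter, was at 189, 178, 181 and 163 CPM in Scr and 1799.7, 2023, 1991 and 1699 CPM in Scr+Cy, with a log2 fold change of 3.40 (SE 0.0721, adjusted p = 2.48e-20). Tapbpl, which edits the bound peptide away from the transporter, was at 30.2, 34.4, 31.8 and 25.9 CPM and 177, 205, 206 and 176 CPM, a log2 fold change of 2.64 (SE 0.107, adjusted p = 2.14e-15). For Erap1, the aminopeptidase of the endoplasmic reticulum, the values were 56.1, 52.5, 59.6 and 59.1 CPM and 358, 379, 390.1 and 402 CPM, with a log2 fold change of 2.75 (SE 0.0689, adjusted p = 5.78e-19). Tapbpl and Erap1 had the smallest changes of the 10, 6.25-fold and 6.73-fold.

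Nlrc5 was close to absent from untreated Scr cells, at 0.728, 1.52, 2.97 and 1.08 CPM, which corresponds to 27, 53, 95 and 35 reads. With cytokines it was at 151, 192, 198 and 193 CPM, and its log2 fold change of 6.88 (SE 0.312, adjusted p = 1.69e-14) was the largest of the 10.

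The same comparison within ZIP and OE cells gave 10 of 10 genes called higher in each line, again with no overlap between treated and untreated libraries for any member. Of all genes, 7.28% were called higher in ZIP+Cy cells and 13% in OE+Cy cells, and 13.3% and 20.7% had every treated library above every untreated one. The median log2 fold change of the members was 3.61 in ZIP and 4.96 in OE cells. In ZIP cells the members ranged from 2.54 for Tapbpl to 6.54 for Nlrc5. Without ZIP replicate 4, whose untreated level was the highest, Nlrc5 was at 7.60, B2m at 6.50 in place of 5.82 and H2-T23 at 6.54 in place of 5.88. In OE cells they ranged from 3.05 for Tapbpl to 9.04 (SE 0.38, adjusted p = 1.9e-15) for Nlrc5, with 7.49 for B2m, 7.04 for Tap1 and 5.78 for Tap2. For H2-K1 the log2 fold change was 4.39 in Scr, 3.72 in ZIP and 3.68 in OE cells, and whether responses differed between lines is tested further on.

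**Figure D2:**
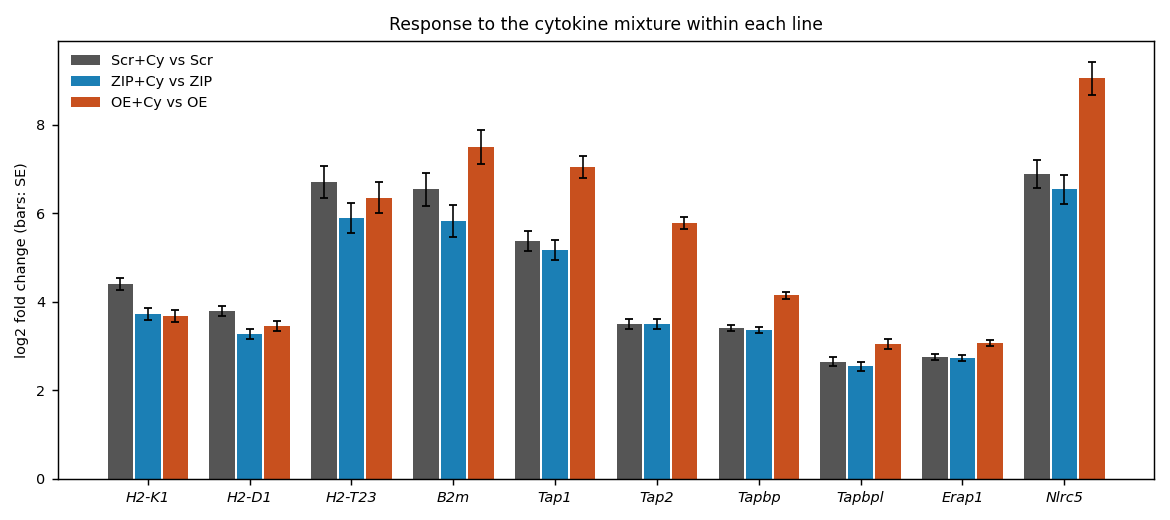
Bars give the log2 fold change of each class I presentation gene after cytokines within the Scr, ZIP and OE lines, and error bars the standard error. Nlrc5 has the tallest bars, reaching 9.04 in OE cells, and Tap1, Tap2 and B2m are taller in OE than in Scr cells.

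To compare levels between genes, CPM was divided by exon length. Per kilobase, untreated Scr cells had most H2-K1 (97.1 ± 9.29 CPM per kb, mean ± SD, n = 4), then H2-D1 (80.0 ± 10.2), Tapbp (61.4 ± 3.72), B2m (35.2 ± 14.1), Tapbpl (13.0 ± 1.5) and Erap1 (10.06 ± 0.581). Tap1 (4.74 ± 0.837), H2-T23 (4.25 ± 1.76) and Tap2 (2.98 ± 0.503) followed, of which H2-T23 overlapped both transporter genes in range while Tap1 lay above Tap2 in every library, and Nlrc5 was last (0.227 ± 0.142). After cytokines B2m took first place, at 3261 ± 196 CPM per kb in treated Scr cells, 2983 ± 208 in treated ZIP cells and 2650.0 ± 360.1 in treated OE cells. H2-K1 came second in each treated group (2037 ± 157, 1984 ± 60.1 and 1859 ± 327), followed by H2-D1. The order of the 10 genes was the same in Scr+Cy, ZIP+Cy and OE+Cy, ending with Erap1, Tap2 and Nlrc5. In untreated OE cells B2m (14.8 ± 1.62) did not differ beyond its spread from Tapbpl (15.1 ± 0.603).

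Reads within a library were also set against each other, since such a ratio needs no scaling between libraries. These 4 ratios were chosen after the levels had been seen, and 20 comparisons were made with an exact two-sided permutation test, whose smallest possible p with 4 against 4 libraries is 0.0286 (0.0381 after adjustment over the 20). The ratio of B2m to the summed reads of H2-K1, H2-D1 and H2-T23 rose from 0.090 ± 0.0311 in Scr to 0.442 ± 0.0246 in Scr+Cy (mean ± SD, n = 4), from 0.0831 ± 0.0444 in ZIP to 0.407 ± 0.0157 in ZIP+Cy and from 0.0265 ± 0.00324 in OE to 0.379 ± 0.022 in OE+Cy. H2-K1 to H2-D1 moved from 0.959 ± 0.0554 to 1.44 ± 0.0326 in Scr cells and from 1.03 ± 0.0849 to 1.2 ± 0.0488 in OE cells. Tap1 to Tap2 went from 1.38 ± 0.255 to 4.98 ± 0.222 in Scr cells, and Tapbp to Tapbpl from 5.86 ± 0.526 to 9.83 ± 0.228. All 12 ratios of treated against untreated cells reached the smallest p, with no overlap between the groups. Between untreated OE and Scr cells, B2m to heavy chains and Tapbp to Tapbpl (3.2 ± 0.152 in OE) were lower and Tap1 to Tap2 was higher (1.74 ± 0.12 in OE), all 3 at the smallest p, and none of the 4 ratios differed between ZIP and Scr cells by this test (adjusted exact p of 0.471 to 0.743).

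Genes around the 10 members moved unevenly. All 5 genes of the immunoproteasome and its activator rose in each line, among them the catalytic subunits Psmb8, Psmb9 and Psmb10, with log2 fold changes of 5.28, 5.69 and 5.51 in Scr cells, 5.84, 5.46 and 5.11 in ZIP cells and 7.77, 8.28 and 6.06 in OE cells. Without ZIP replicate 4, Psmb8 was at 6.52 in ZIP cells. Of the other class I heavy chain genes, 14 of 16 rose in Scr, 13 in ZIP and 14 in OE cells, led in Scr cells by H2-Q6 (6.12), H2-T10 (5.30) and H2-T9 (5.28), nonclassical genes whose near-identical copies can divide reads. Among 7 other peptidases only Lap3, a leucine aminopeptidase, rose, by 0.96 in Scr, 0.80 in ZIP and 1.16 in OE cells. Of 4 class I-like genes, Hfe, which takes part in iron uptake, rose by 0.65 in Scr cells, and 2 were called in ZIP and 1 in OE cells.

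Regulators of class I transcription rose for 7 of 15 genes in Scr cells, 7 in ZIP cells and 8 in OE cells. Irf1, a transcription factor induced by interferon, went from 29.1, 28.3, 30.1 and 25.6 CPM in Scr to 365, 424, 433 and 425 CPM in Scr+Cy, a log2 fold change of 3.86 (SE 0.104, adjusted p = 1.59e-18). Ifngr2, a chain of the receptor for IFNγ, rose by 1.32 in Scr, 1.54 in ZIP and 3.02 in OE cells. None of the 5 general chaperones that fold class I molecules reached the 1.5-fold limit in Scr or ZIP cells. Among them Uggt1, which returns misfolded glycoproteins to the chaperones, had small positive changes of 0.46 (SE 0.062, adjusted p = 3.84e-06) in Scr and 0.40 (SE 0.0619, adjusted p = 2.25e-05) in ZIP cells, and Pdia3, a disulphide isomerase, of 0.30 (SE 0.0986, adjusted p = 0.0337) and 0.30 (SE 0.0986, adjusted p = 0.0257). In OE cells Calr (calreticulin, -0.77, SE 0.132, adjusted p = 3.9e-05) and Hspa5 (BiP, -0.89, SE 0.108, adjusted p = 3.24e-07) fell. There Uggt1 (0.39, SE 0.0619, adjusted p = 1.4e-05), Canx (-0.46, SE 0.0638, adjusted p = 2.44e-06) and Pdia3 (-0.55, SE 0.0988, adjusted p = 6.09e-05) were under the fold limit, which Pdia3 passed without OE+Cy replicate 1 (-0.60). The chaperones were named after their values had been seen.

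OE cells were next compared with Scr cells without cytokines, with Scr as control. The microRNA-overexpressing line had less mRNA for the light chain, the transporter, tapasin and the transactivator, with 5 of 10 members lower and 0 higher. Of all genes, 14.4% were called lower and 11.3% higher in this comparison. B2m was at 10.8, 13.5, 12.6 and 13.9 CPM in OE cells, below all 4 Scr libraries, and its log2 fold change was -1.25 (SE 0.315, adjusted p = 0.00184). Tap1 was at 4.65, 5.2, 4.94 and 5.93 CPM, a log2 fold change of -1.44 (SE 0.225, adjusted p = 8.95e-06), and Tap2 at 2.66, 3.16, 2.98 and 3.11 CPM, a log2 fold change of -1.79 (SE 0.139, adjusted p = 1.15e-10). No OE library reached the lowest Scr library for either transporter gene.

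Tapbp was at 119, 111, 115 and 109.5 CPM in OE cells, below Scr with a log2 fold change of -0.65 (SE 0.0664, adjusted p = 1.48e-08). Nlrc5 was at 0.121, 0.354, 0.331 and 0.491 CPM, which is 4, 13, 12 and 15 reads, and its log2 fold change was -2.25 (SE 0.584, adjusted p = 0.00237). Both genes were lower in all 4 OE libraries than in any Scr library. With so few reads the 95% interval of the Nlrc5 difference was wide, -3.40 to -1.11.

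The classical heavy chains did not share this fall. H2-K1 was at 229, 252, 243 and 238 CPM in OE cells, above every Scr library, with a log2 fold change of 0.58 (SE 0.119, adjusted p = 0.000251) that stopped just short of the 1.5-fold limit. It passed that limit with DESeq2 size factors (0.59), after filterByExpr (0.59), in DESeq2 (0.59) and in limma (0.60), and without Scr replicate 1 (0.60), Scr replicate 3 (0.66), OE replicate 1 (0.60) or OE replicate 4 (0.59), so that the count of 0 members higher became 1. H2-D1 was at 252, 236, 225 and 221 CPM, also above every Scr library, with 0.47 (SE 0.1, adjusted p = 0.000355). For H2-T23 (3.9, 4.92, 5.74 and 5.31 CPM), Tapbpl (37.1, 36.2, 33.8 and 35.2 CPM) and Erap1 (55.2, 56.5, 59.3 and 56.5 CPM) the OE and Scr libraries overlapped, and the 95% intervals of the log2 difference were -1.01 to 0.37, 0.01 to 0.42 and -0.13 to 0.13.

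In the other lists, 2 of 5 immunoproteasome genes were lower in OE than in Scr cells. Psmb8 was at 1.48, 1.9, 2.12 and 2.49 CPM against 8.5, 8.74, 11.8 and 8.55 CPM in Scr, with a log2 fold change of -2.23 (SE 0.295, adjusted p = 8.28e-07), and Psmb9 at 0.272, 0.49, 0.552 and 0.557 CPM against 2.4, 2.16, 4.03 and 1.83 CPM, with -2.46 (SE 0.33, adjusted p = 1.01e-06). Psmb10 means were 3.53 ± 0.344 and 3.55 ± 0.76 CPM, with a 95% interval of -0.43 to 0.43 for the log2 difference. Of the 16 other heavy chain genes 7 were lower and 2 higher, and of the 15 regulators only Ifngr2 was called (-0.63). Irf1 differed by -0.46 (SE 0.0983, adjusted p = 0.000418), under the fold limit. Lap3 (0.63) was the 1 peptidase of 7 and Hspa5 (0.65) the 1 chaperone of 5 called, both higher, and Hfe (-1.05) the 1 class I-like gene of 4, lower.

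**Figure D3:**
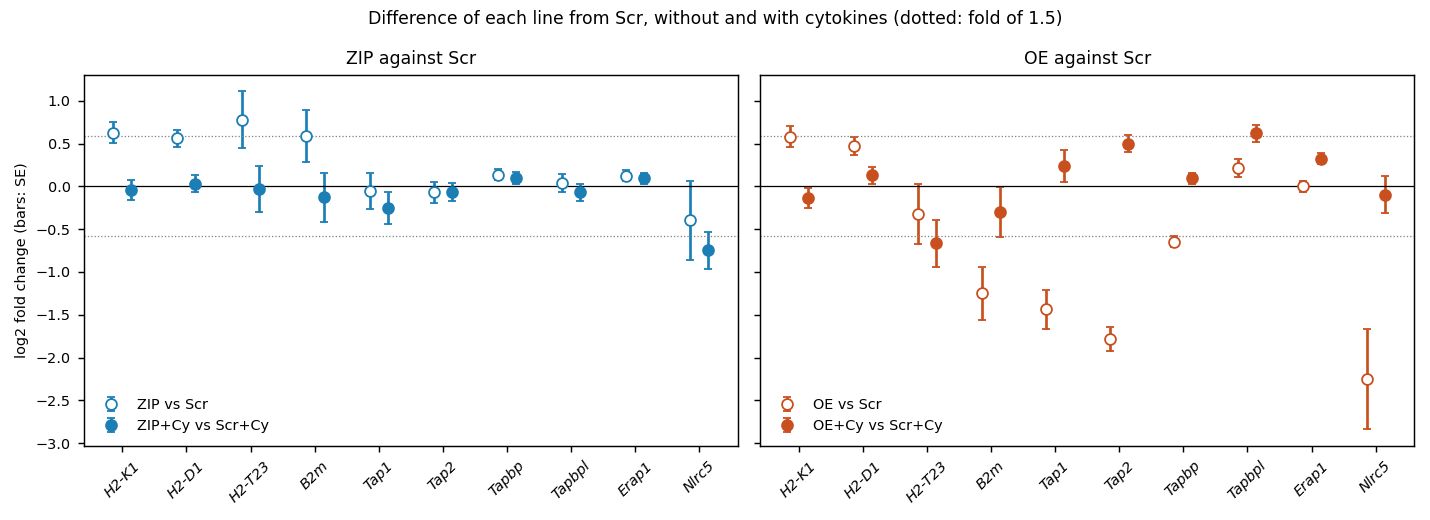
Log2 fold change of each class I presentation gene in ZIP cells (left) and OE cells (right) against Scr cells, without cytokines (open circles) and with cytokines (filled circles), with standard errors and dotted lines at a 1.5-fold difference. Nlrc5, Tap2, Tap1 and B2m lie between -2.25 and -1.25 in untreated OE cells, whereas with cytokines no OE circle lies below -0.67.

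OE and Scr cells were then compared after cytokines. OE+Cy cells differed from Scr+Cy cells in 1 member called higher, Tapbpl, and 1 called lower, H2-T23, where 13.7% of all genes were higher and 14.8% lower. Tapbpl was at 257, 293, 317 and 309 CPM in OE+Cy cells, above every Scr+Cy library, with a log2 fold change of 0.62 (SE 0.0996, adjusted p = 1.14e-05), which became 0.58 and missed the fold limit without Scr+Cy replicate 4. H2-T23 was at 289, 390.0, 449 and 497 CPM, below every Scr+Cy library, with -0.67 (SE 0.271, adjusted p = 0.0422). This call was lost without OE+Cy replicate 1, when the log2 fold change was -0.53, and in DESeq2.

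The genes that had been lower in untreated OE cells were not called lower after treatment. Tap2 reached 146, 156, 163 and 192 CPM in OE+Cy cells, above every Scr+Cy library, with a log2 fold change of 0.50 (SE 0.102, adjusted p = 0.000214). Tap1 was at 589.7, 656, 727 and 753 CPM, Tapbp at 1859.9, 2000.5, 2091 and 2071 CPM and Nlrc5 at 135, 166, 194 and 193 CPM, and each of these overlapped the Scr+Cy libraries. Their 95% intervals for the log2 difference were -0.12 to 0.60, -0.03 to 0.22 and -0.51 to 0.32. B2m, at 1864, 2222, 2543 and 2486 CPM, lay below every Scr+Cy library, but its log2 difference of -0.30 (SE 0.288, adjusted p = 0.398) did not pass the test. Erap1 was at 465, 458, 535 and 457 CPM, above every Scr+Cy library, with 0.32 (SE 0.0641, adjusted p = 0.000153), under the fold limit. H2-K1 (2328, 3115, 3252 and 3611 CPM) and H2-D1 (2055, 2571, 2715 and 2889 CPM) overlapped Scr+Cy, with intervals of -0.36 to 0.10 and -0.07 to 0.32.

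Whether the cytokine response itself differed between OE and Scr cells was tested as an interaction at an adjusted p under 0.05, with no fold limit. The response was larger in OE cells for 5 members and smaller for 1, against 9.64% and 10.3% of all genes. The difference in log2 fold change was 2.29 (SE 0.173, adjusted p = 1.14e-08) for Tap2, 1.67 (SE 0.291, adjusted p = 0.000263) for Tap1 and 2.16 (SE 0.628, adjusted p = 0.0165) for Nlrc5. It was 0.74 (SE 0.0932, adjusted p = 1.01e-05) for Tapbp and 0.32 (SE 0.0919, adjusted p = 0.0147) for Erap1. H2-K1 had the smaller response, with a difference of -0.71 (SE 0.168, adjusted p = 0.00376). Each value equals the OE against Scr difference with cytokines minus that without. For Tap1, Tap2, Tapbp and Nlrc5 it therefore reflects mostly the lower untreated level in OE cells. For H2-K1 it reflects mostly the higher untreated level (0.58), since with cytokines the difference was -0.13 and the libraries overlapped. The untreated OE and Scr libraries overlapped for Erap1.

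In this interaction the Nlrc5 difference was 1.65 with an adjusted p of 0.0731 without Scr replicate 3, and that of Erap1 0.25 with an adjusted p of 0.0547 without OE+Cy replicate 3. Tapbpl, at 0.40 (SE 0.144, adjusted p = 0.0503), was just outside the limit. It was inside it in all 6 other fits, namely DESeq2 size factors, filterByExpr, a replicate block (0.40, adjusted p = 0.0341), only the groups compared, DESeq2 and limma (0.38 to 0.42, adjusted p of 0.0202 to 0.043), and without Scr replicate 4 (0.48), Scr+Cy replicate 2 (0.44), Scr+Cy replicate 3 (0.44) or OE+Cy replicate 1 (0.46). B2m (0.95, SE 0.425, adjusted p = 0.124) was outside the limit too, but inside it with only the groups compared (0.93, adjusted p = 0.0188). H2-D1 (-0.34, SE 0.141, adjusted p = 0.0905) was outside it except without OE+Cy replicate 4 (-0.43, adjusted p = 0.0388), and H2-T23 was at -0.34 (SE 0.444, adjusted p = 0.653).

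Other genes of the pathway were tested in the same way. In the interaction of OE against Scr cells, 4 of 5 immunoproteasome genes had a larger response, Psmb8 by 2.49 (SE 0.361, adjusted p = 4.33e-05) and Psmb9 by 2.58 (SE 0.363, adjusted p = 3.21e-05), with Psmb10 at 0.55 (SE 0.265, adjusted p = 0.159) outside the limit. Of the 15 regulators 7 had a larger and 1 a smaller response, among them Irf1 (1.28, SE 0.135, adjusted p = 1.09e-06) and Ifngr2 (1.69, SE 0.161, adjusted p = 2.39e-07). Irf1 was also higher in OE+Cy than in Scr+Cy cells, at 662, 657, 810.4 and 789 CPM against 365, 424, 433 and 425 CPM, a log2 fold change of 0.83 (SE 0.092, adjusted p = 5.18e-08). Between these treated lines Psmb8 (0.26), Psmb9 (0.12) and Psmb10 (0.55) were not called. Among the chaperones 4 of 5 had a smaller response, namely Calr (-0.98), Canx (-0.45), Pdia3 (-0.86) and Hspa5 (-1.07), which were named after their values had been seen. Calr, which holds class I molecules in the loading complex, was lower in OE+Cy than in Scr+Cy cells (-1.06, SE 0.133, adjusted p = 3.21e-07). Of the other heavy chain genes, 1 had a larger and 1 a smaller response among 16.

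ZIP cells were then compared with Scr cells for the same genes. By qRT-PCR the paper found the miR-146a-5p level of untreated ZIP cells unchanged against Scr. After cytokines it reports a smaller rise of the microRNA in ZIP than in Scr cells. Without cytokines 2 members were called higher, H2-K1 and H2-T23, and 0 lower, where 7.97% of all genes were higher and 6.91% lower. H2-K1 was at 202, 235, 228 and 328 CPM in ZIP cells, above every Scr library, with a log2 fold change of 0.63 (SE 0.12, adjusted p = 0.000243). H2-D1 was at 223, 246, 226 and 299 CPM, also above every Scr library, with 0.56 (SE 0.1, adjusted p = 0.000116), under the fold limit. H2-T23 was at 4.98, 6.75, 8.49 and 22.2 CPM and overlapped Scr, with 0.78 (SE 0.332, adjusted p = 0.0853).

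Which members were called depended on single libraries. The count was 4 without Scr replicate 3, ZIP replicate 1 or ZIP replicate 3, 1 without Scr replicate 2 or ZIP replicate 4, and 0 without Scr replicate 4, when H2-K1 was at 0.57 and H2-T23 at 0.75 without passing both limits. H2-T23 was also lost without Scr replicate 1 (0.69) and Scr replicate 2 (0.62), and B2m was called at 0.91 without Scr replicate 3. ZIP replicate 4 was the highest ZIP library for 9 of the 10 members, and it held 5.49 times the mean of the other 3 ZIP libraries for Nlrc5, 3.40 times for B2m, 3.30 times for H2-T23 and 2.56 times for Tap1. Values in ZIP cells were 21.9, 34.3, 28.9 and 96.5 CPM for B2m, 9.26, 9.7, 10.104 and 24.8 CPM for Tap1 and 0.329, 0.438, 0.868 and 2.99 CPM for Nlrc5. The same library was also the highest in ZIP for Psmb8 (3.37 times the mean of the other 3), Psmb10 (2.25 times), Psmb9 (1.81 times) and Irf1 (1.3 times). Of 936 other genes that cytokines raised in Scr cells, 43.5% were highest in this library, against 32.4% of all 13310 genes that reached 1 CPM. Its fibroblast markers summed to 3.8 CPM, within the range of the other ZIP libraries.

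Without ZIP replicate 4, 0 members were higher and 1 was lower. H2-K1 kept a log2 fold change of 0.47 with an adjusted p of 0.00128, now under the fold limit, and H2-D1 one of 0.46 with an adjusted p of 0.000789. H2-T23 was at 0.13 and B2m at -0.09, and neither passed the test. Nlrc5 was called lower, at -1.46 (adjusted p = 0.0161), and Tap1 reached -0.53 (adjusted p = 0.00125) without passing the fold limit. With the library included, Nlrc5 had differed by -0.40 (SE 0.459, adjusted p = 0.569) and Tap1 by -0.05 (SE 0.209, adjusted p = 0.897). Tap2, Tapbp, Tapbpl and Erap1 overlapped Scr with all libraries included, with 95% intervals of -0.31 to 0.17, 0.01 to 0.27, -0.17 to 0.24 and -0.0031 to 0.26 for the log2 difference.

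**Figure D4:**
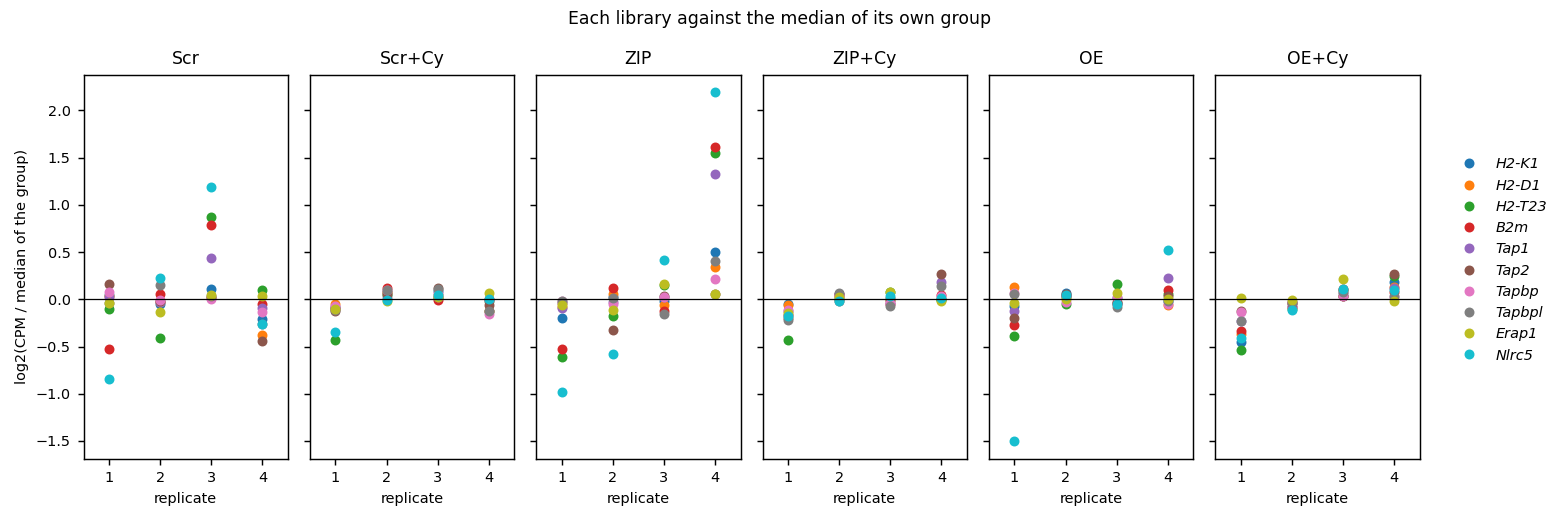
Each library's CPM over the median of its own group, on a log2 scale, for the 10 class I presentation genes in the 6 groups. In ZIP, replicate 4 stands above the rest for Nlrc5, B2m, H2-T23 and Tap1, and in each cytokine group replicate 1 has most of its points below 0.

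Among the other lists in untreated ZIP cells, Psmb8 was lower than in Scr, at 3.15, 2.74, 3.44 and 10.5 CPM against 8.5, 8.74, 11.8 and 8.55 CPM, with a log2 fold change of -0.91 (SE 0.265, adjusted p = 0.0108) and of -1.59 (adjusted p = 1.14e-07) without ZIP replicate 4. It was the only one of 5 immunoproteasome genes called, with Psmb9 at 0.17 and Psmb10 at 0.24. None of the 7 peptidases, 5 chaperones or 15 regulators was called, including Irf1 (0.08). Of the other heavy chain genes 3 of 16 were higher, and of the class I-like genes 1 of 4.

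With cytokines 1 member was called between ZIP and Scr cells, where 7.1% of all genes were higher and 8.67% lower. Nlrc5 was at 98.9, 111, 115 and 113 CPM in ZIP+Cy cells, below every Scr+Cy library, with a log2 fold change of -0.74 (SE 0.215, adjusted p = 0.0112). By DESeq2 and by limma this difference was of like size (-0.73 in both) but not called, with adjusted p values of 0.264 and 0.267. Tap1 was at 438, 492, 466 and 543 CPM, below every Scr+Cy library, with -0.25 (SE 0.184, adjusted p = 0.334). The other 8 members overlapped Scr+Cy, with log2 differences between -0.13 for B2m and 0.10 for Tapbp. Of the heavy chains, H2-K1 had a 95% interval of -0.27 to 0.19 and H2-D1 of -0.17 to 0.22, so that a 1.5-fold difference lay outside both. None of the immunoproteasome, peptidase, chaperone, class I-like or regulator genes was called, with Psmb8 at -0.35, Psmb9 at -0.07, Psmb10 at -0.16 and Irf1 at -0.04, and of the other heavy chains 1 was higher and 3 lower.

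The response to cytokines did not pass the interaction test between ZIP and Scr cells for any member in edgeR, where 0.0509% of all genes had a larger and 0.00565% a smaller response. By the edgeR test with no adjustment, 2 members passed 0.05, both with a smaller response in ZIP cells. H2-K1 had a difference of -0.67 (adjusted p = 0.257) and H2-D1 of -0.53 (adjusted p = 0.306), and DESeq2 called 1 of the 10, H2-K1. Both were higher in untreated ZIP cells (0.63 and 0.56), while with cytokines they differed from Scr+Cy by -0.04 and 0.03. The remaining differences in response lay between -0.81 for H2-T23 and 0.0008 for Tap2. That of Nlrc5 was -0.35, and 0.71 without ZIP replicate 4, when H2-T23 was at -0.16 and B2m at -0.04 in place of -0.72. None of the genes in the other lists passed, with Psmb8 at 0.57, which was called at 1.24 (adjusted p = 0.00866) without ZIP replicate 4, Psmb9 at -0.23, Psmb10 at -0.40 and Irf1 at -0.12. The ZIP and OE comparisons share the Scr libraries.

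Class I heavy chain genes are closely related, and the authors' counting could divide reads between them. When the reads of 19 heavy chain genes were summed to 1 feature, its log2 fold change was 4.35 in Scr, 3.80 in ZIP and 3.76 in OE cells after cytokines, between those of H2-D1 and H2-K1 in Scr cells. Without cytokines the sum was higher than in Scr by 0.52 in ZIP cells (SE 0.117, adjusted p = 0.0013) and by 0.50 in OE cells (SE 0.117, adjusted p = 0.000993), both under the fold limit. With cytokines it differed by -0.02 and -0.09. The summed heavy chains had a smaller response in OE than in Scr cells, with a difference of -0.59 (SE 0.165, adjusted p = 0.0132), as H2-K1 alone did. This reflects mostly their higher untreated level in OE cells (0.50), against -0.09 with cytokines. The lower level of H2-T23 in OE+Cy cells was not seen in the sum, of which H2-T23 is a small part, and the separate values of the heavy chains are uncertain where reads were shared.

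Libraries within a group shared their position across members. Replicate 1 was the lowest ZIP+Cy library for 10 of 10 members, the lowest OE+Cy library for 9 and the lowest Scr+Cy library for 6, with Scr+Cy replicate 4 lowest for the other 4. Of the 936 other genes that cytokines raised in Scr cells, 56.1%, 48.6% and 43.9% were lowest in replicate 1 of ZIP+Cy, OE+Cy and Scr+Cy, against 23.8%, 32.6% and 29.9% of all 13310 genes. In OE+Cy replicate 1, H2-T23 was at 0.648 of the mean of the other 3 libraries and H2-K1 at 0.7. In Scr+Cy replicate 1, H2-T23 was at 0.731 and Nlrc5 at 0.779. Fibroblast markers summed to 58.7 CPM in this library, the highest of all, but to 6.04 and 1.11 CPM in replicate 1 of ZIP+Cy and OE+Cy. Treated and untreated libraries nonetheless did not overlap for any member. Among Scr libraries replicate 3 was the highest for 6 of 10 members, with Nlrc5 at 2.67 times and H2-T23 at 2.0 times the mean of the others.

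Across all 24 libraries the 10 genes rose and fell together, with Pearson correlations of log2 CPM between pairs of members of 0.94 to 0.998. These libraries share treatment and line, and the values describe that pattern with no test. Among 13300 other genes that reached 1 CPM in a group, the nearest to B2m were Igtp (0.998), Irgm2 (0.997) and H2-Q6 (0.996), of which the first 2 encode interferon-inducible GTPases. Nlrc5 was nearest to Psmb8, H2-Q6 and Irgm2 (0.995, 0.995 and 0.994), and Tap1 to Parp14, Psmb8 and Irgm2 (0.997, 0.996 and 0.995). Tap2 was nearest to Mov10, Psmb9 and Ifit3b (0.995, 0.994 and 0.992). H2-K1 was nearest to H2-T22, Psmb10 and Irf9 (0.991, 0.99 and 0.989), H2-D1 to Psmb10 and Ddx58 (0.992 and 0.991), and H2-T23 to H2-T22, Il18bp and Igtp (0.995, 0.993 and 0.991). Tapbp was nearest to Ogfr and Parp14 (0.996 in both), Tapbpl to Parp12, Rnf31 and Ifih1 (0.995, 0.995 and 0.994), and Irf9 and Parp9 (0.996 in both) were among the 3 nearest to Erap1. Between 2.65% and 3.39% of the 13300 genes had a correlation above 0.9 with a given member.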

How the data were processed

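RNA was measured in 24 libraries of MIN6 lines by mRNA sequencing. The authors aligned reads to mm10 with STAR, counted them against RefSeq transcripts in Partek Flow, left out genes whose reads over all libraries came to under 10, and normalized with DESeq2. The submitters' processing notes also name FastQC and give STAR 2.7.8a and Partek 11.0.24.0204, whereas the study's methods name other releases. The deposited estimated counts, of which 30.3% were not whole, were rounded before testing. The deposited normalized signal was found to be these counts divided by 1 size factor per library, and was used only in limma, as log2(value + 1). All 17696 genes entered 1 edgeR 4.0.16 quasi-likelihood fit of 6 group means (R 4.3.3, TMM scaling), with 4 libraries in each group taken from the labels, and calls needed a 1.5-fold difference and a p below 0.05 before adjustment, the study's limits. P values were adjusted by Benjamini-Hochberg across the whole table, and interactions were called at an adjusted p under 0.05. Standard errors are the log2 fold change divided by the root of the F statistic. Depth was 26657792 to 37168232 assigned reads per library, and intervals cover only the spread between libraries. Tests with DESeq2 1.42.0 and limma 3.58.1, other filters, a replicate block and each library left out in turn were alternatives.

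The members and gene lists were chosen with earlier results of these data known. All members were described. Of the other lists, Psmb8, Psmb9, Psmb10 and Irf1 were always named, as were up to 3 called genes per list with the largest change in Scr+Cy against Scr and a mean of at least 1 CPM, and genes named outside this rule are marked as such. One gene of this rule is not reported here. Same-numbered libraries deviated together over 12670 genes in Scr with Scr+Cy (correlations of 0.413 to 0.626), ZIP with ZIP+Cy (0.261 to 0.397), OE with OE+Cy (0.162 to 0.455), Scr with ZIP (0.141 to 0.634) and Scr+Cy with ZIP+Cy (0.191 to 0.37), so the replicate numbers were taken to pair these groups. By these correlations the numbers did not pair Scr with OE (-0.129 to 0.295) or Scr+Cy with OE+Cy (0.0006 to 0.165). The labels give same-numbered libraries a shared prefix in every group, OE included, and do not say what it means.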

Additional observations from a re-analysis of the deposited data

Results flagged for a closer look

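In 60 groups of 4 libraries, 10 genes in 6 groups, 6 had a library whose gap to its nearest neighbour, as a share of the group's range, exceeded 0.829, the critical value of Dixon's test. Chance flags about 1 in 20 such groups. ZIP replicate 4 was the high library for Tap1 (0.9455) and B2m (0.8343). Scr+Cy replicate 1, which also had the highest fibroblast marker sum, was the low library for Nlrc5 (0.8649) and H2-T23 (0.8396). Replicate 1 of ZIP+Cy and of OE+Cy, also lowest for most members, had fibroblast sums of only 6.04 and 1.11 CPM. OE+Cy replicate 3 was high for Erap1 (0.8894), and Scr replicate 4 was low for H2-D1 (0.8353). The cause of these positions was not tested.

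The response to cytokines differed between OE and Scr cells for 6 members in the interaction test of edgeR. The difference in log2 fold change, OE minus Scr, was 2.2876 for Tap2, 2.1582 for Nlrc5, 1.6749 for Tap1, 0.74 for Tapbp, 0.3221 for Erap1 and -0.7131 for H2-K1.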

How the results depend on the processing

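Of 2573 values of members and named pathway genes under alternatives, 2464 kept their direction and their side of the threshold, and 109 did not. The 10 called members in each cytokine comparison stayed at 10 under every alternative run. In ZIP against Scr, 2 members were called, and 1 with only the groups compared, in limma or at an adjusted p, and 0 to 4 with 1 library left out. In ZIP+Cy against Scr+Cy the count of 1 became 0 in DESeq2 and in limma. In OE+Cy against Scr+Cy the count of 2 became 1 in DESeq2 and 1 to 2 with 1 library left out. In the ZIP interaction the count of 0 became 1 in DESeq2 and 1 at an unadjusted p and fold limit. In the OE interaction the count of 6 became 7 with DESeq2 size factors, filterByExpr, a replicate block, DESeq2 or limma, each adding Tapbpl, 8 with only the groups compared, adding Tapbpl and B2m, and 5 to 7 with 1 library left out. In the paired analysis, with the replicate block, Tapbpl was at 0.40 (adjusted p = 0.0341), and no other call of a member changed. H2-K1 in OE against Scr passed the fold limit at 0.593 with DESeq2 size factors, 0.5865 after filterByExpr, 0.593 in DESeq2, 0.5971 in limma and with any of 4 libraries left out. The cause of these changes was not tested.

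Directions reversed for small differences. In OE against Scr, Psmb10 was 0.0111 with DESeq2 size factors, 0.0045 after filterByExpr, 0.0066 in DESeq2 and 0.0225 in limma. With heavy chain reads summed, H2-T23 was replaced by 0.4974 in OE against Scr, and H2-D1 by -0.0208 in ZIP+Cy against Scr+Cy and -0.0903 in OE+Cy against Scr+Cy. In the ZIP interaction Tap2 was -0.0027 after filterByExpr and -0.0106 in limma, and Nlrc5 was 0.0419 in limma. With 1 library left out, ZIP against Scr ranged from -0.0892 to 0.911 for B2m, -0.5296 to 0.097 for Tap1, -0.1747 to 0.0146 for Tap2, -0.0909 to 0.1113 for Tapbpl, -1.4594 to 0.1115 for Nlrc5, -0.1039 to 0.4646 for Psmb9, -0.1505 to 0.4151 for Psmb10 and -0.0258 to 0.1557 for Irf1. OE against Scr ranged from -0.4792 to 0.0219 for H2-T23, -0.034 to 0.0543 for Erap1 and -0.0773 to 0.1768 for Psmb10. ZIP+Cy against Scr+Cy ranged from -0.0086 to 0.0597 for H2-D1, -0.1349 to 0.0806 for H2-T23, -0.1551 to 0.0157 for Tap2, -0.1242 to 0.0055 for Tapbpl and -0.0924 to 0.0244 for Irf1, and OE+Cy against Scr+Cy from -0.1772 to 0.0046 for Nlrc5. The ZIP interaction ranged from -0.3394 to 0.2767 for Tap1, -0.0885 to 0.1089 for Tap2, -0.0857 to 0.0195 for Tapbp, -0.1672 to 0.0216 for Tapbpl, -0.0633 to 0.0334 for Erap1, -0.845 to 0.7149 for Nlrc5 and -0.5224 to 0.0355 for Psmb9. Nlrc5 in untreated OE cells rests on 4 to 15 reads per library.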

Other observations

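H2-Q2, a nonclassical heavy chain gene of the Q region, was named after its values had been seen. In edgeR it was higher in OE than in Scr cells both without cytokines, with a log2 fold change of 6.35 (SE 0.183, adjusted p = 1.71e-18), and with them, with 6.01 (SE 0.163, adjusted p = 5.28e-19). Reads of this gene may be divided with related heavy chain genes, and the clone and the vector of the OE line cannot be told apart.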
